A study of Mus musculus with 24 samples.

Results

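Nuclear genes of the oxidative phosphorylation system were followed through 12 lists of accessible chromatin that span the differentiation of mouse embryonic stem cells towards cardiomyocytes. Members were the protein-coding genes of the 19 autosomes and chromosome X whose symbols start with Ndufa, Ndufb, Ndufc, Ndufs, Ndufv, Uqcr or Atp5, or with Cox followed by a digit from 4 to 8, together with Sdha to Sdhd. The symbol rule gave 96 genes of 21631 protein-coding genes, and it used no measured value. It placed 39 genes in complex I, 4 in complex II, 8 in complex III, 20 in complex IV and 17 in complex V. The remaining 8 are factors that assemble complex I (Ndufaf1 to Ndufaf8), which the rule takes in because their symbols start with Ndufa. Cox7a2l, a factor that joins complexes into supercomplexes, is among the 20 of complex IV, as are Ndufa4 and its paralog Ndufa4l2, since the NDUFA4 protein sits in complex IV.

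Oxidative phosphorylation is the last stage of respiration in the inner mitochondrial membrane. Complexes I and II pass electrons from NADH and succinate to ubiquinone, complex III passes them to cytochrome c, and complex IV passes them to oxygen. Complexes I, III and IV pump protons, and complex V, the ATP synthase, uses the gradient to make ATP. Most subunits are encoded in the nucleus and a minority in mitochondrial DNA, and known regulators of the nuclear genes include NRF1, GABPA (an ETS factor), YY1 and the oestrogen-related receptors with their coactivator PGC-1. Beating heart muscle depends heavily on this system, and several complex IV subunits have a heart and skeletal muscle isoform beside a ubiquitous one.

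ATAC-seq, in which the Tn5 transposase inserts sequencing adapters into open DNA, was done on nuclei of A2lox.cre, an established mouse embryonic stem cell line. The 24 samples gave each of 12 time points 2 biological replicates. These were the 2i stage, a culture condition for naive stem cells, each day from day 0 (D0) to day 8, and days 10 and 15, where D15 is the cardiomyocyte stage per the series' design text. All groups share the 1 line, with no genotype or drug arm, and each replicate pair shares 1 deposited peak list, so no value below has a replicate spread. In such bulk samples, fewer cells with an open site and a less open site in each cell cannot be told apart. The lists held 31324 (D1) to 66993 (D7) peaks. Read depth is not given in the sources used here, and a gene without a peak in a list was not called there, which does not show that it was closed.

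Marker genes gave a limited check of the labels by gene-end summits, that is, peak summits within 1 kb of either annotated end of a gene. Of all protein-coding genes, 55.4% had one at 2i and 55.1% at D15. Of 5 stem cell markers, 3 had one at 2i, near the share of all genes, 1 at D0 and 3 in each list from D1 to D3. From D4 to D8 it was 1 or 2 of them, and at D10 and D15 it was 0. The stem cell marker count at D0 was thus lower than in the lists on either side. Tnnt2 (cardiac troponin T) had one in each list from D5 on, and Myh6 (a cardiac myosin heavy chain) had none in any list. At D15 the 4 fibroblast markers and the 3 smooth muscle markers all had one, against 0 of each at 2i. The fibroblast markers also all had one at D7 and D8, and the smooth muscle markers in each list from D5 to D8. The 7 cardiomyocyte markers had 3 at D15 (42.9%, below the share of all genes) and 2 at 2i. The 2 at 2i, Actn2 and Ryr2, had one in all 12 lists. The highest count was 5 (71.4%), at D5 and D7, where 60.3% and 63.6% of all genes had one. The 3 endothelial markers had 1 at 2i and at D15, and 3 at D7. The 3 skeletal muscle markers had 0 at D15, 1 at 2i, and 2 in each list from D2 to D4 and from D6 to D8. The D15 list and some middle lists therefore hold markers of other cell types as well, whose part in the results below was not tested.

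Promoter windows of 300 bases, from 250 before to 50 after a transcription start, were taken for 78 of the 96 members from RefSeq (GRCm38.p6, equivalent to mm10). The first set shows the elements searched for below, in 3 members that carry several of them and in Ndufs4, which carries the YY1 element alone. Capitals mark every match on either strand to GCGCATGC or the looser GCGCNTGC (NRF1), CCGGAAG (ETS factors), AAGATGGCG (YY1), GGGCGG (SP and KLF factors), TGACGTCA (CREB), AAGGTCA (oestrogen-related receptors) or TATAAA (a core promoter box). Atp5k, which encodes a small membrane subunit of the ATP synthase, lies at chr5:108434350-108434649 on the minus strand. Sdhb, the iron-sulphur subunit of complex II, lies at chr4:140961021-140961320 on the plus strand, and Cox6a1, the ubiquitous isoform of a complex IV subunit, at chr5:115348909-115349208 on the minus strand. Ndufs4, an accessory subunit of complex I, lies at chr13:114388045-114388344 on the minus strand. All sequences run 5′ to 3′ along the gene's strand.
Atp5k: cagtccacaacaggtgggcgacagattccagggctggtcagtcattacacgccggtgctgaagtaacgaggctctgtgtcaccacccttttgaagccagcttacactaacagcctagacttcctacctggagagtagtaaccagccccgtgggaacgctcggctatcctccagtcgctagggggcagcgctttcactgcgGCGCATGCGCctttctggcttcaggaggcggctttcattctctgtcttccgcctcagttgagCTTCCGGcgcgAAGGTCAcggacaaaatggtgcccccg
Sdhb: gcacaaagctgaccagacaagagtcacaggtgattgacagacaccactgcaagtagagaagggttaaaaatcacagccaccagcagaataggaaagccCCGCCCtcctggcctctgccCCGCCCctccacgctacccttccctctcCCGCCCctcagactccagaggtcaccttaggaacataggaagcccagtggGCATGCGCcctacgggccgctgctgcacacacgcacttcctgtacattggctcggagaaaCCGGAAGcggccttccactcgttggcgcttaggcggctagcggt
Cox6a1: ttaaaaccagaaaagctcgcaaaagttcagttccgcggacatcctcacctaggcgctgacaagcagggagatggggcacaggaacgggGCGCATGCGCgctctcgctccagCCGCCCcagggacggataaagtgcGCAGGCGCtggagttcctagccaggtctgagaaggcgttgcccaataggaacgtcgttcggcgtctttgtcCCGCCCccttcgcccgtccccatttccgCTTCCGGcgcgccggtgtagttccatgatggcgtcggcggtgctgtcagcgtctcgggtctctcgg
Ndufs4: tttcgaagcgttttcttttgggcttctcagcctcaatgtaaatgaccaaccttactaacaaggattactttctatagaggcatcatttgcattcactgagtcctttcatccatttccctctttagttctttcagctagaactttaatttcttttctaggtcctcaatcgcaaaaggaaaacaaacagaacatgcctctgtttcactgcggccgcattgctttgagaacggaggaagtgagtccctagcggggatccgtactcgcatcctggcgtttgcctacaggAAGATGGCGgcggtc

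The second set shows windows that members share with a gene starting in the opposite direction. Atp5j, subunit F6 of the ATP synthase, lies at chr16:84834927-84835226 on the minus strand, and its start is 148 bp from that of Gabpa, which encodes the DNA-binding subunit of GABP. Sdhd, a membrane anchor of complex II, lies at chr9:50603800-50604099 on the minus strand, with its start 52 bp from that of Timm8b, a mitochondrial import gene.
Atp5j: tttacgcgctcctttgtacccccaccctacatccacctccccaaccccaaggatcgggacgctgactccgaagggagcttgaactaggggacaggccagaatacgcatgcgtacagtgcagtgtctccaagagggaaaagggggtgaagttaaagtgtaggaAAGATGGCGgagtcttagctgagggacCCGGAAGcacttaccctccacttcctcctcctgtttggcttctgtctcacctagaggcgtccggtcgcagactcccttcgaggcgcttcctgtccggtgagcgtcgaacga
Sdhd: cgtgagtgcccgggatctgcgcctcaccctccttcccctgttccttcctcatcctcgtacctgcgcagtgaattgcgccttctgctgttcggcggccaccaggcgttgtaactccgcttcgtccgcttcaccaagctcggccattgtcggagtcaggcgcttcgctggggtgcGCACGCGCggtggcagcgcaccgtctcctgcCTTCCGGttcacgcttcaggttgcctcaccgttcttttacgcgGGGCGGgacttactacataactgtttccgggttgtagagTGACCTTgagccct

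The third set shows some of the complex IV genes whose calls varied between lists, with the ubiquitous partner of Cox7a1. Cox7a1, the heart and muscle isoform of subunit VIIa, lies at chr7:30183921-30184220 on the plus strand, and Cox7a2, its ubiquitous counterpart, at chr9:79759804-79760103 on the minus strand. Cox8b, the muscle isoform of subunit VIII, lies at chr7:140900397-140900696 on the minus strand. Cox6b1, the ubiquitous isoform of subunit VIb, lies at chr7:30626065-30626364 on the minus strand.
Cox7a1: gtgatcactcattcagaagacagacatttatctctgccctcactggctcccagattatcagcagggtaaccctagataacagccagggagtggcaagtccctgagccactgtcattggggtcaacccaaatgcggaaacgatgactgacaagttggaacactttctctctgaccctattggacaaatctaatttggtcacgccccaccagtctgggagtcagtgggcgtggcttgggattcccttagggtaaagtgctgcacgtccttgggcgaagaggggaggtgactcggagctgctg
Cox7a2: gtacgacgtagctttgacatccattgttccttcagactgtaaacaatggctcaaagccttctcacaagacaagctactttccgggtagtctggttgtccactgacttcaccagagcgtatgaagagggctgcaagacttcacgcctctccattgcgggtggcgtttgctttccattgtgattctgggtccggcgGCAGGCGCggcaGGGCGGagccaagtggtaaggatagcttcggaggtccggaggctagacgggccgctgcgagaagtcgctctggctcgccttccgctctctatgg
Cox8b: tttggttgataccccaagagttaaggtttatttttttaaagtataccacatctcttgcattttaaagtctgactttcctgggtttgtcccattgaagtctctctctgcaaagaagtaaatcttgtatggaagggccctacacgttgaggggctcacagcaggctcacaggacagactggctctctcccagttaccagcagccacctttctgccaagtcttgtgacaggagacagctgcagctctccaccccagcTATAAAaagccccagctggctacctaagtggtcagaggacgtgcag
Cox6b1: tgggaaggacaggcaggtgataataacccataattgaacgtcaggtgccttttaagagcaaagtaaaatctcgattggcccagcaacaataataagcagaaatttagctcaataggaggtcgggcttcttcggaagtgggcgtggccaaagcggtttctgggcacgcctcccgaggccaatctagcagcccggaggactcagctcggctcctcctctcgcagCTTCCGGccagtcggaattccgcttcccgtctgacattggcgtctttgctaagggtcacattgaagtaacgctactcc

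Most members were called open at a gene end throughout. A gene-end summit was present in all 12 lists for 75 of the 96 members (78.1%, Wilson 95% interval 68.9% to 85.2%), where percent called over all protein-coding genes was 44.4. Cytosolic ribosomal protein genes, another set used by nearly every cell, gave 70 of 85 (82.4%). Both sets thus stood at similar levels above all genes. Without summits that also lie at an end of another gene, the members' count was 37 (38.5%, against 32.7% of all genes), a smaller difference from all genes. Only 5 members had no gene-end summit in any list, against 29.3% of all genes, and 16 had one in some lists.

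In the 2i list 83 of the 96 members had a gene-end summit, where 55.4 percent of all genes were called. The D0 list had 82 members (55.3 percent called over all genes), the D1 list 80 (50.9) and the D2 list 87 (60.7). For D3 the count was 84 (61.8), for D4 83 (59.3), for D5 86 (60.3) and for D6 85 (58.5). The later lists held 87 members for D7 (63.6), 87 for D8 (61.9), 85 for D10 (55.9) and 88 for D15 (55.1). The lowest count fell in the shortest list and the highest in the last list, and the members' share stayed between 83.3% (D1) and 91.7% (D15).

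**Figure D1:**
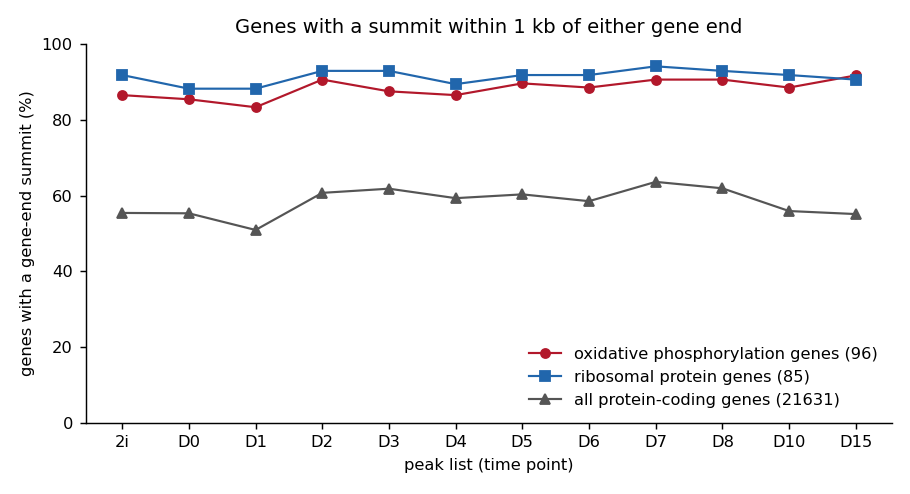
Share of genes with a summit within 1 kb of either gene end in each of the 12 peak lists, for the 96 oxidative phosphorylation genes, the 85 ribosomal protein genes and all 21631 protein-coding genes. Both named sets lie well above all genes in every list, and the members stay between 80 and 88 genes.

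Complex IV had the lowest share of genes called throughout. All 4 complex II genes had a gene-end summit in all 12 lists, as had 7 of 8 complex III genes, 33 of 39 complex I genes, 14 of 17 complex V genes and 7 of 8 complex I assembly factors. In complex IV only 10 of 20 genes did (Wilson interval 29.9% to 70.1%), near the 44.4 percent called of all genes. By starts in the promoter table it was 9 of 14 (64.3%), against 48.4 percent called. The complex IV genes include the tissue isoforms, and their list counts ranged from 11 genes at D0 to 15 at D2. Of the 5 members with no gene-end summit anywhere, 3 were in complex IV (Cox5a, Cox6a2 and Cox7a2) and 2 in complex I (Ndufb4b and Ndufb4c).

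Some of these absences came from the gene models. Cox5a, a complex IV subunit with no tissue isoform, and Cox7a2 both had a summit within 1 kb of the start in the promoter table in all 12 lists, since that start lies inside their annotated bounds. At Cox7a2 the summit lay 54 to 183 bp after the start, with a fold enrichment, the authors' ratio of signal to background at the summit, of 10.6 (D15) to 19.9 (D3). The scale of this ratio differed between lists. Over all genes with a gene-end summit, the median of the highest value was 6.66 at D1, 14.1 at D3 and 7.87 at D15. Differences in this ratio between lists are therefore not a measure of change. Atp5g3, which makes 1 of 3 precursors of the same c subunit of the ATP synthase ring, also had start summits in all 12 lists but a gene-end summit at D15 alone. Counted by table starts, 64 of the 78 members in the table were called in all 12 lists (82.1%), against 48.4 percent called among the 17274 genes in the table.

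Summits sat close to the starts. Over all lists, 1052 summits lay within 1 kb of a table start of 77 members, at a median of -11 bp, with quartiles of -115 and 80 bp, and 898 of them (85.4%) lay within 250 bp. The median in single lists ranged from -22 bp (D6) to 30 bp (D0).

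**Figure D2:**
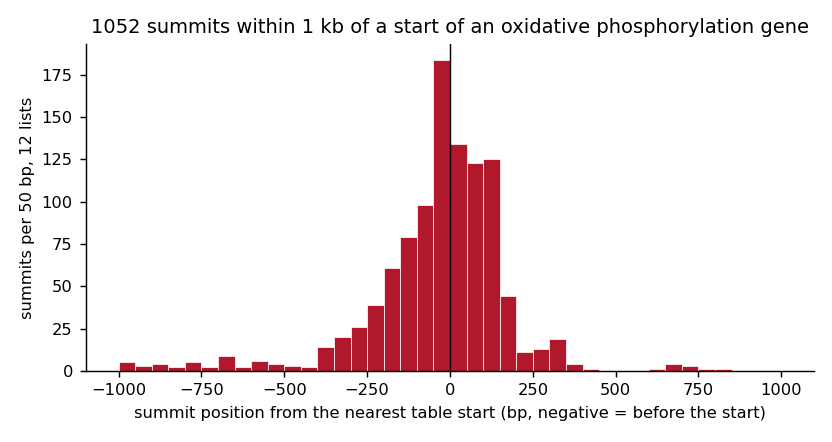
Positions of the 1052 summits within 1 kb of a table start, summed over the 12 lists, in bins of 50 bp (x axis, bp from the nearest start of the gene, negative before it; y axis, number of summits). The summits form 1 peak around the start, with the median at -11 bp.

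Within a list, genes can be ranked by their highest gene-end fold enrichment. The members' median rank stood at the 55.8th percentile of called genes at 2i, the 56.4th at D1, the 66.0th at D7 and the 67.7th at D15, and it was in the upper part of the ranks in each of the 12 lists. The ribosomal protein genes had medians of 35.4 at 2i, 57.5 at D7 and 66.6 at D15. Percentiles of lists of different length are not a measure of change between time points. The following genes were chosen after their values were seen. Ndufa12, an accessory subunit of complex I, had the highest median percentile over its 12 lists (95.7, range 68.3 to 99.9), followed by Sdha, the flavoprotein of complex II (94.5, range 59.8 to 98.4), and Cox7c, a small complex IV subunit (93.3, range 28.4 to 99.0). Among members called in all 12 lists, Ndufb10, an accessory subunit of complex I, had the lowest (11.5, range 0.159 to 22.5), and Ndufa4l2 came next (15.0, range 0.132 to 35.8).

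None of the 3 heart and muscle isoforms of complex IV was called in all 12 lists. Cox6a2, at chr7:128205435-128206366, had no summit at its ends, in its body or within 10 kb in any list, D10 and D15 included. Cox8b had a gene-end summit in 2 lists, 296 bp after its start at D2 (fold enrichment 3.2, −log10 q 2.47) and 142 bp after it at D15 (3.81, −log10 q 3.7). Both were weak peaks, ranked 36113 of 39328 and 28267 of 36248 by fold enrichment in their lists.

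Cox7a1 was called in 10 lists, from D1 to D15, and not at 2i or D0. The fold enrichment at its start was 6.66 (D1), 2.92 (D2), 14.6 (D3), 3.43 (D4) and 9.41 (D5) in the first lists that called it. Later values were 7.16 (D6), 8.43 (D7), 5.01 (D8), 3.82 (D10) and 3.68 (D15). Among called genes of the same list, Cox7a1 stood at the 50.1th percentile at D1, the 52.8th at D3 and the 4.6th at D15. The summit was strongest within its list at D3 (−log10 q 89.2) and ranked 29128 of 36248 peaks at D15 (−log10 q 3.26). With only peaks of −log10 q of at least 5, Cox7a1 was called in 6 lists and in neither D10 nor D15. The Cox7a1 start was thus called from the first days of differentiation, and its calls at D2, D4, D10 and D15 had the lowest −log10 q (1.55 to 3.91).

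Of the ubiquitous isoforms, Cox6b1 was called in 9 lists, in each list from D2 on. The values there were 6.67 (D2), 11.8 (D3), 4.58 (D4), 9.79 (D5) and 6.71 (D6), then 14.8 (D7), 8.24 (D8), 7.33 (D10) and 4.88 (D15). Cox7b, on chromosome X, was called in 7 lists (2i, D2, D4, D7, D8, D10 and D15), with fold enrichments of 3.2 (2i) to 6.69 (D7). Cox4i1, Cox6a1, Cox8a and Ndufa4 were called in all 12 lists, and Cox7a2 was called in all 12 by its start. Of the 3 muscle isoforms, 0 were called at 2i and D0, 1 at D1, 2 at D2, 1 in each list from D3 to D10 and 2 at D15. By gene ends, which leave Cox7a2 out, 0 of 3 muscle (Wilson interval up to 56.1%) and 4 of 7 ubiquitous isoforms were called in all 12 lists. With so few genes, the difference between the groups was not tested. By table starts it was 0 of 2 and 4 of 6.

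Isoforms of other tissues were more mixed. Cox4i2, the lung isoform of subunit IV, was called in 6 lists (D2, D3 and D5 to D8), with summits at either end and fold enrichments of at most 6.45 (D3). Cox7b2, a testis isoform, was called at 2i (fold enrichment 4.68) and D1 (4.42) only, and Cox8c, also a testis isoform, at D0 only (5.62). Cox6b2, the testis isoform of subunit VIb, was called in all 12 lists, as was Ndufa4l2, a hypoxia-responsive paralog of Ndufa4, both at low percentiles (medians 28.3 and 15.0). Of their gene-end summits, 26 of 27 at Cox6b2 and 19 of 19 at Ndufa4l2 also lay within 1 kb of an end of another gene. Such shared summits cannot be assigned to 1 gene.

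In complex I, 3 accessory subunits were missing from D1 alone, the shortest list: Ndufa1, Ndufa9 and Ndufb3. Ndufb4b and Ndufb4c, short paralogs of Ndufb4 of 471 and 485 bp, had no gene-end summit, and only Ndufb4b had another summit nearby, at D15. Of the assembly factors, Ndufaf1 was called in 9 lists (not D0, D1 or D3), with fold enrichments of 3.9 (D2) to 13.1 (D8).

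In complexes III and V the exceptions were few. Uqcr11, a small complex III subunit, was called in 10 lists (not 2i or D4), from 2.94 (D0) to 15.6 (D3). The percentile of Uqcr11 was 67.6 at D1 and 59.5 at D3. Atp5d, the delta subunit in the central stalk of the ATP synthase, had no start summit at 2i and had one in each of the other 11 lists, and Atp5l, subunit g of the ATP synthase, was missing from D4 alone. 2i and D4 were the lists with the least statistical weight for a given enrichment: peaks of fold enrichment near 5 had a median −log10 p of 7.69 at 2i and 7.71 at D4, against 8.62 (D5) or more in each other list. Its part in these absences was not tested.

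**Figure D3:**
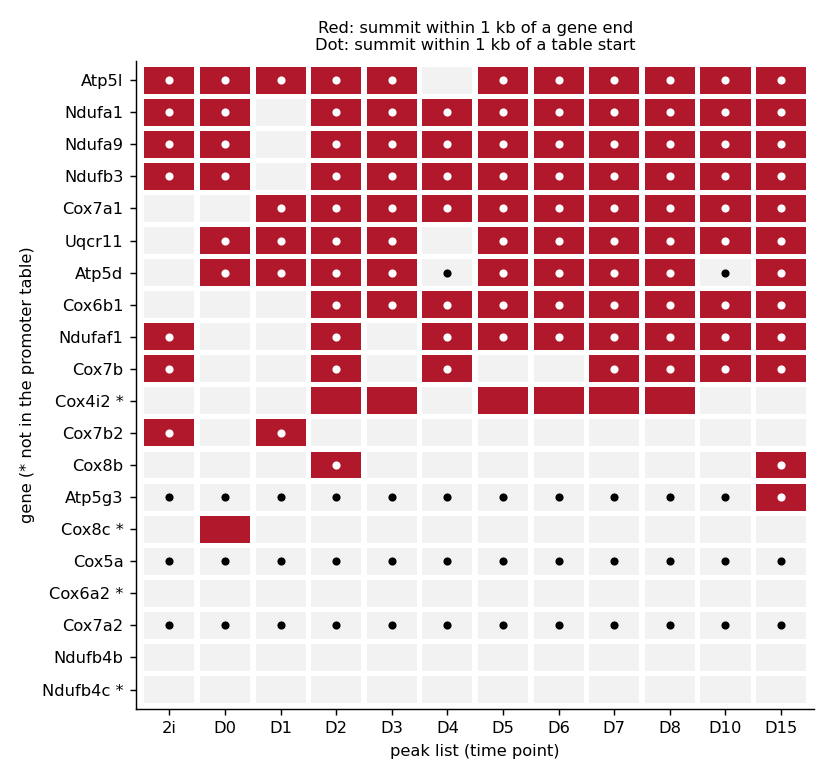
Members without a gene-end summit in every list (20 rows, with the number of lists falling from top to bottom) against the 12 peak lists (columns). Red cells have a summit within 1 kb of a gene end and dots mark a summit within 1 kb of a table start; Cox5a, Cox7a2 and Atp5g3 have a dot in all 12 lists, and Cox6b1 fills D2 to D15.

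Members switched between the ends of the course about as rarely as other genes. A gene-end summit at both D10 and D15 and at neither 2i nor D0 was found for 2 members, Cox7a1 and Cox6b1 (2 of 96, with 2.26 percent called over all genes), and the opposite pattern for 0 members (2.34 percent called). No ribosomal protein gene had either pattern. For the order of days, each gene's calls in the 11 lists with a day were compared with day by an exact two-sided permutation test of the rank sum. After Benjamini-Hochberg adjustment over the 5439 genes called in some but not all of these lists, 0 genes passed 0.05 (percent called 0.0), and the smallest adjusted p was 0.285. At an unadjusted p below 0.05 there were 864 genes (15.9 percent called), 561 of them called later and 303 earlier.

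Of the 16 members that entered this exact permutation test, 3 had an unadjusted p below 0.05, each with later calls, among them Ndufaf1 (p = 0.0242) and Cox6b1 (p = 0.0364). Their adjusted p was 0.285, so no member's calls were shown to go with day. The smallest unadjusted p that any gene reached was 0.00433, so after adjustment over all genes the test had little power to call 1 gene. Cox7a1, absent from D0 alone among these lists, had an unadjusted p of 0.182 in the exact test, the smallest that 10 calls in 11 lists can give.

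Members often shared their open ends with a neighbouring gene. Of their 1244 gene-end summits, 643 also lay within 1 kb of an end of another protein-coding gene. Such a shared summit was seen at 42 of the 91 members with any gene-end summit (46.2%), against 24.7 percent called over all genes, 30.0% of genes called in all 12 lists and 26.2% of ribosomal protein genes. For 34 members every gene-end summit was shared.

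Many of the shared ends were head-to-head promoters. The start of 22 of the 78 members in the promoter table (28.2%) lay within 1 kb of a start on the opposite strand pointing away from it, against 8.59 percent called over all genes in the table, 16.4% of genes called in all 12 lists and 12.5% of ribosomal protein genes. This is a property of the annotation, not of the samples. The closest pairs were Ndufa7 with the ribosomal protein gene Rps28 (10 bp between starts) and Ndufs3, a core subunit of complex I, with Kbtbd4 (19 bp). Sdhd with Timm8b and Atp5j with Gabpa, whose windows are printed above, were among them, as were Sdha with Ccdc127 (77 bp), Ndufaf2 with the DNA repair gene Ercc8 (113 bp) and Ndufb5 with Mrpl47, a mitochondrial ribosomal protein gene (308 bp). Of the 22 genes, 21 had a gene-end summit in all 12 lists, and Ndufb3, which pairs with Fam126b, had one in 11. Over all genes in the table, 1281 of the 1483 with a head-to-head start had a gene-end summit in all 12 lists. An open site between such starts cannot be assigned to 1 of the 2 genes.

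The promoter windows of the members held some regulator motifs more often than those of other genes. The NRF1 motif GCGCATGC was in 12 of 78 members (15.4%, Wilson interval from 9.03%), against 3.98% of all genes in the table and 6.93% of genes called in all 12 lists. The looser form GCGCNTGC, which includes it, was in 29 (37.2%, interval 27.3% to 48.3%), against 14.3% and 23.8%. The YY1 motif AAGATGGCG was in 8 (10.3%, interval from 5.29%), against 2.15% and 3.82%. AAGGTCA was in 8 (10.3%, interval from 5.29%), against 4.72% and 3.07%. In each of these 4 the interval of the members lay above the share of the genes called in all 12 lists. The ribosomal protein genes held them in 4.69%, 17.2%, 6.25% and 4.69% of windows. On the gene's strand only, this held for YY1 (10.3% against 2.86%). It did not hold for GCGCATGC (8.97%, interval from 4.42%, against 5.01%), its looser form (19.2% against 14.2%, inside the members' interval up to 29.3%) or AAGGTCA (3.85%, interval from 1.32%, against 1.66%).

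For the other motifs the members' interval did not lie above the genes called in all 12 lists. CCGGAAG was in 19 members (24.4%), against 13.1% of all genes, 21.0% of genes called in all 12 lists and 37.5% of ribosomal protein genes. GGGCGG was in 35 (44.9%, interval 34.3% to 55.9%), close to the 49.8% of all genes and below the 73.8% of genes called in all 12 lists. TGACGTCA was in 4 (5.13%), Ndufa10, Ndufa11, Ndufb2 and Uqcrfs1, against 2.58% and 4.17%. TATAAA, searched after the sequences had been seen, was in 8 (10.3%), against 14.9% and 7.46%. A match is a run of letters and does not show that a factor was bound.

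**Figure D4:**
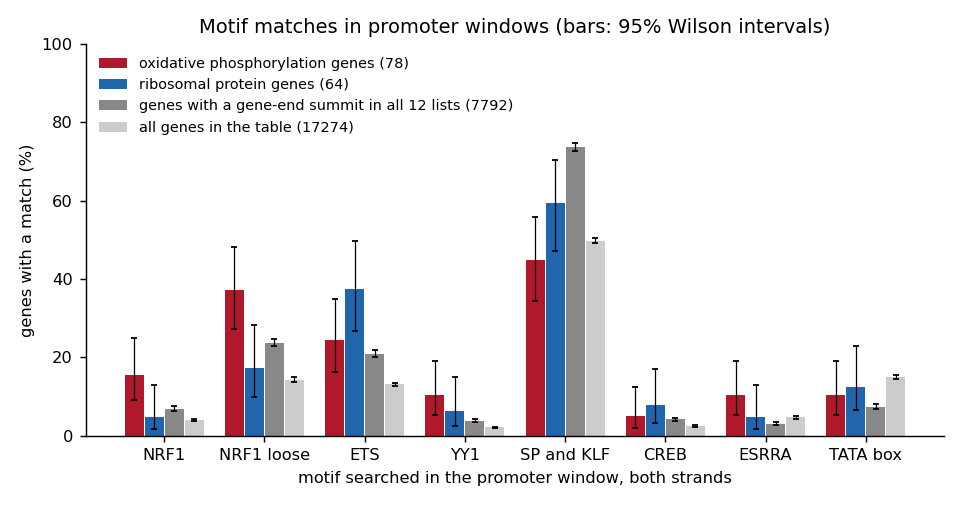
Share of genes whose promoter window holds each motif on either strand, for 78 members, 64 ribosomal protein genes, 7792 genes with a gene-end summit in all 12 lists and all 17274 genes in the table, with 95% Wilson intervals. The members' bars are highest for both NRF1 forms, YY1 and the ESRRA motif AAGGTCA, and lowest of the 4 sets for SP and KLF.

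The positions of the matches in members were not compared with those in other genes. All 8 YY1 matches were on the gene's own strand, and 7 of them began 10 to 35 bases after the start, as in Ndufs4 above (35). The exception was Atp5j, at -88, where the match lies between its start and that of Gabpa. The 20 matches to GCGCATGC in members made up 13 sites once overlapping matches on opposite strands were joined, and 10 of these sites lay within 100 bp of the start. In Atp5k the palindromic core begins at -50, and an ETS match follows at 12. In Sdhb the NRF1 match begins at -54 and the ETS match at 6. In all, 45 of 78 members (57.7%) held GCGCNTGC, CCGGAAG or AAGATGGCG, against 25.8% of all genes, 41.6% of genes called in all 12 lists and 53.1% of ribosomal protein genes, and 8 held both GCGCNTGC and CCGGAAG.

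The variably called complex IV genes with a window were mixed in motifs and CpG content. The Cox7a1 window held none of the motifs searched, the Cox8b window held only TATAAA, beginning 4 bases after the table start, the Cox6b1 window held CCGGAAG at -28, the Cox7b window held no motif searched, and the Cox7b2 window held TATAAA and GGGCGG. The ratio of observed to expected CpG was 0.11 in Cox8b and 0.33 in Cox7a1, the lowest of the members, then 0.37 in Cox7b and 0.4 in Ndufb4b. Cox7b2 had 0.56 and Cox6b1 0.81. The members' median was 0.831, against 0.585 over all genes and 0.807 over genes called in all 12 lists, so the typical member had a CpG-rich start, as had Cox6b1, and Cox7a1, Cox8b and Cox7b did not. Low ratios also occurred in members called in all 12 lists, such as Cox6b2 (0.43) and Ndufc2 (0.48). Of the 62 such members with a window, 53 had a ratio of at least 0.6 (85.5%). This was near the 81.3% of all genes called in all 12 lists, where all genes in the table had 48.9%.

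Away from their own ends, the members had summits about as often as other genes. A further summit in the body or within 10 kb was present in at least 1 list for 76 of 96 members (79.2%), with 81.7 percent called over all genes. Summits at table starts inside the gene bounds count here. The median member is 7228 bp long and the median protein-coding gene 17329 bp. Over the lists, these other summits numbered 109 (2i), 90 (D0), 76 (D1), 105 (D2), 95 (D3) and 103 (D4). From D5 on there were 90 (D5), 74 (D6), 120 (D7), 112 (D8), 71 (D10) and 91 (D15). Per 1000 peaks of the list this was 1.79 (D7) to 2.67 (D2), and 2i (2.37, Wilson interval up to 2.86) and D15 (2.51, interval from 2.05) had overlapping intervals.

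Many of these summits belonged to neighbours by position. Of 1136 other summits, 459 lay within 1 kb of an end of another protein-coding gene, and 333 had the member as the nearest gene. Only 43 members (44.8%) had another summit for which they were the nearest gene, against 66.0% of all genes. Atp5d had most of all members (86 summits), in a dense stretch with Stk11, Cbarp and Midn. The most in the other groups were in Ndufc1 (35), Cox7b (32), Uqcr11 (29), Ndufaf2 (25) and Sdhb (16), and at each of these 5 the regions present in all 12 lists lay within 1 kb of an end of a neighbour (Naa15, Magt1 and Atp7a, Mbd3, Smim15 and Atp13a2). At the other extreme, 8 complex I genes, 2 assembly factors, 3 complex III, 4 complex IV and 3 complex V genes had none, and Sdhd had 1.

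Merging the peaks of all lists gave 193 regions near 74 members that were not at their own ends, 148 of them away from every gene end. Ends here are those of the gene bounds, so table starts inside the bounds count among these regions. Of the 193, 37 (19.2%) were in all 12 lists, against 6.99% of the regions near any protein-coding gene. Of the 37, 24 were at an end of another gene, and the regions at the starts of Cox5a and Cox7a2 were among the rest. Regions present at 2i and D0 and absent at D10 and D15 numbered 25 (13.0%, Wilson interval 8.93% to 18.4%), against 8.71%, and the reverse pattern 3 (1.55%, interval 0.53% to 4.47%), against 4.26%. Regions absent at both ends of the course and present in at least 2 neighbouring lists of D1 to D8 numbered 27 (14.0%), against 16.9%, and 68 (35.2%) were in 1 list only, against 42.8%. With equal numbers of peaks per list the early, late and middle patterns gave 14, 8 and 13 of 134 regions (10.4%, 5.97% and 9.7%, against 8.84%, 6.69% and 12.3%), so the excess of early over late regions depended on the peaks used.

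**Figure D5:**
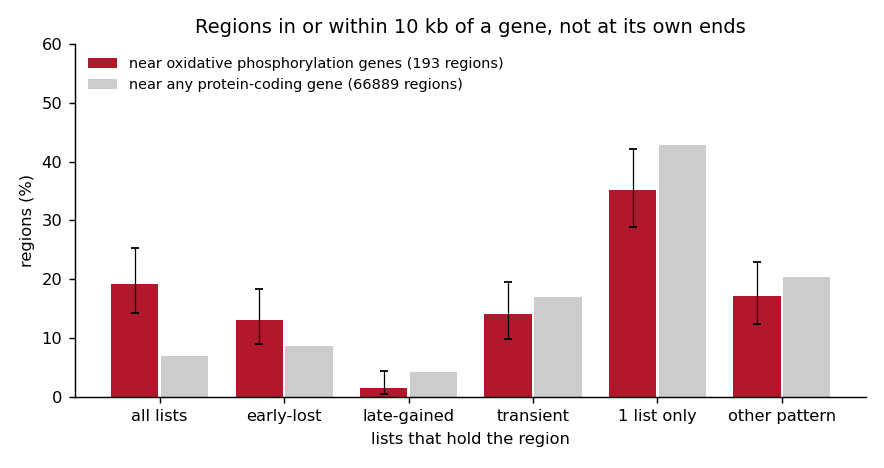
Share of regions in each class, by the lists that hold the region, for 193 regions near members (with 95% Wilson intervals) and 66889 regions near any protein-coding gene. Regions in all 12 lists make up 19.2% near members and 6.99% near any gene.

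Ndufs4, 100300 bp long, had most regions (10), of which 1 was present at D10 and 0 at D15. Its interior region at chr13:114297354-114298437 was present at 2i, D0, D2, D3, D4 and D6, with a fold enrichment of 14.8 at D3, and that at chr13:114310277-114310870 at 2i and D0 alone. A pair of interior regions, at chr13:114342865-114343273 and chr13:114346389-114346903, was present at D5, D7 and D8. By list, Ndufs4 had 5 other summits at 2i, then 3 (D0), 0 (D1), 3 (D2), 1 (D3) and 4 (D4). Later counts were 2 (D5), 1 (D6), 2 (D7), 2 (D8), 1 (D10) and 0 (D15). Its gene-end summit was present in all 12 lists, so the start was called throughout, while interior sites were called in some lists only.

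Among the 8 assembly factors, Ndufaf5, Ndufaf2 and Ndufaf6 had the most regions, and no other had more than 2. They are also the longest of the 8, at 48382 bp (Ndufaf5), 106064 bp (Ndufaf2) and 27247 bp (Ndufaf6). Ndufaf5 had 8, of which chr2:140185530-140186521 (2i, D0, D1, D2 and D4) and chr2:140203755-140204898 (2i and D0) were called early and not at D10 or D15. Ndufaf2 had 7, including chr13:108132299-108133567 at D4, D5, D7 and D8 (fold enrichment 9.66 at D7). Ndufaf6 had 5, with chr4:11043013-11043903 present from 2i to D5 and chr4:11067038-11067518 present at D4, D8, D10 and D15 (6.08 at D15). The other late regions were chr10:127512701-127513275 in Ndufa4l2, present from D6 on, and chr9:108569787-108570711, 2.81 kb from Ndufaf3, present from D2 on.

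Other members with many regions included Cox7b2 and Ndufa4l2 (6 each), Ndufa10 and Sdhc (5 each) and Atp5b (4). In Cox7b2, chr5:71525435-71525923 was present at 2i, D0, D1, D4 and D7 (fold enrichment 10.2 at 2i). Near Cox8b, chr7:140908436-140909097, 8.32 kb from the gene, was present in 11 lists (not D1) with 10.1 at D7. The region chr7:140903104-140903675 was present at 2i, D0, D2, D3, D6, D7 and D8, and absent at D1, D4, D5, D10 and D15. Near Cox7a1 the 1 recurrent region, chr7:30192808-30195390, lay nearest to Capns1. The region 8.77 kb from Cox6b1, at chr7:30634545-30635215, lay nearest to Etv2, a regulator of blood and endothelial fate, and was present at 2i and from D2 to D7.

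Genes that work with these complexes were called in a similar way. Among electron carriers and transporters, 7 of 9 had a gene-end summit in all 12 lists (44.4 percent called over all genes), among them Cycs (cytochrome c) and Slc25a4, the heart and muscle adenine nucleotide carrier. Slc25a5 was called in 11 lists, and Ckmt2, the sarcomeric mitochondrial creatine kinase, at 2i only. Of 12 complex IV assembly genes 11 were called in all lists, and Surf1 was called in each of the 9 lists from D2 on, the same lists as Cox6b1. Of 12 regulators, 9 were called in all lists, including Nrf1, Gabpa, Yy1, Esrra, Tfam and Ppargc1a (PGC-1 alpha). At the ends of their gene bounds, Gabpb1 was called in 0 lists, Esrrb at D7 and D8 only, and Esrrg in 9. By table starts, Gabpb1 was called in all 12 lists, Esrrb in 9 (not D0, D1 or D15) and Esrrg in 11 (not D1), while the table start of Ppargc1a was called in 0.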

How the data were processed

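The samples were 24 ATAC-seq libraries, 2 replicates at each of 12 time points, with 1 deposited peak list per time point. MACS2 2.1.1, Bowtie2 2.3.2, cutadapt 2.10, Picard, SAMtools 1.5 and build mm10 are named, without order or settings, per the submitters' processing notes. How replicates were combined is not given in the sources used here. For each peak the deposited lists give a fold enrichment (a linear ratio), the −log10 of both its p-value and its q-value, a display score and a summit offset, all as the authors' peak caller wrote them. The smallest −log10 q was 1.3 to 1.31 in every list.

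Summits were assigned to RefSeq gene bounds (GRCm38.p6, no strand or exons), so introns and exons are not named. A summit within 1 kb of either end is a gene-end summit, and any other in the body or within 10 kb is an other summit. Promoter windows came from RefSeq for 78 members. The 18 without an entry included Ndufa2, Ndufb4c, Ndufb9, Ndufs1, Ndufaf6, Sdhc, Uqcrb, Uqcrc2, Uqcrq, Cox4i1, Cox4i2, Cox6a2, Cox6c, Cox8c, Ndufa4l2, Atp5a1 and Atp5mpl. A gene with several windows counts once. Regions were merged with bedtools 2.31.1; the rest used Python 3.11.15, numpy 2.4.6 and pandas 2.3.3, tested on simulated data. Wilson 95% intervals of shares reflect counting error alone. Members and gene lists were chosen with earlier results of these data known. Named genes were all members missing from a list, the isoform lists, the 10 members with most regions and the extremes of each complex. Alternatives were window size, reach, peak strength, equal peak numbers (31324 per list), lists left out, shared ends and motif strand. The values of 1 member are counted in the totals but not reported here. Signal tracks were not used here.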

Additional observations from a re-analysis of the deposited data

How the results depend on the processing

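No paired analysis was possible because the 2 replicates of a time point share 1 peak list. The number of members called at a gene end in all 12 lists was 64 to 78 under the window, peak strength, equal peak number, membership and list alternatives and with table starts, and the number with another summit was 60 to 90 under all alternatives but 1. Without summits at an end of another gene the first fell from 75 to 37, and with the member as nearest gene only the second fell from 76 to 43. The day test gave 0 members under each of its 10 alternatives, which says nothing about stability, since 11 or fewer lists leave it little power. On the gene's strand only, the members with a motif numbered 7 for NRF1, 15 for its looser form, 7 for ETS, 23 for SP and KLF and 3 for ESRRA, since fewer positions were searched. Early-lost, late-gained and transient regions, for which the alternatives were chosen after seeing the data, numbered 12, 8 and 15 with −log10 q of at least 5 and 14, 8 and 13 with equal peak numbers, against 25, 3 and 27. Cox7a1 was called in 6 lists at −log10 q of at least 5. Cox8b was called in 0 lists there and in 1 with equal peak numbers. Read depth per list was not given, so time and depth cannot be told apart, and the lists carry no replicate error.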

Other observations

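Summits away from the ends of the gene bounds, table starts inside the bounds included, were counted in the long genes of 3 regulators. Esrrb, an oestrogen-related receptor of naive stem cells, had 11 other summits at 2i, then 9 (D0), 7 (D1), 5 (D2), 11 (D3), 1 (D4), 3 (D5), 3 (D6), 5 (D7), 4 (D8), 1 (D10) and 0 (D15). Esrrg, the family member expressed in heart, had 6 (2i), 3 (D0), 0 (D1), 8 (D2) and 5 (D3). Its later counts were 26 (D4), 10 (D5), 5 (D6), 17 (D7), 18 (D8), 8 (D10) and 7 (D15). Ppargc1a, the coactivator that works with these receptors, had 4 (2i), 5 (D0), 2 (D1), 2 (D2) and 3 (D3), then 16 (D4), 12 (D5), 0 (D6), 15 (D7), 10 (D8), 7 (D10) and 4 (D15). The highest counts of Esrrb were thus in early lists, and those of Esrrg at D4, D8 and D7, the 3 longest lists, and of Ppargc1a at D4, D7 and D5. The lists differ in length and have no replicate spread, so these counts were not tested.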
